A study of Mus musculus with 8 samples.

Results

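The comparison described here sets MLL-AF9 leukaemia cells in which Cdc73 can be deleted against cells with the normal gene, 24 h after the start of 4-hydroxytamoxifen (4OHT). It uses 4 of the 8 libraries of the series. The floxed group was Cdc73fl/fl CreERT2 and the wild type group Cdc73 +/+ CreERT2. Both came from strain 129S6, and both received 7.5 nM 4OHT for 24 h. The same lines at 48 h, with the same dose, formed the other 2 groups and are given here only as side-by-side values. Every group therefore carried the MLL-AF9 fusion, the tamoxifen-activated recombinase CreERT2 and exposure to the drug. The cells were established acute myeloid leukaemia lines derived from mouse bone marrow, grown in IMDM with 15% serum and 10 ng/mL interleukin 3. The sources used here do not say whether a line was 1 clone. Poly(A) RNA was sequenced from 2 libraries per group.

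Each group has 1 value per gene in the authors' deposited table, in FPKM (fragments per kilobase of transcript, relative to the size of the library), and each time has a q-value for the genotypes. A gene entered the comparison when it had a proper symbol and reached 1 FPKM in at least 1 of the 24 h groups, which 10767 of 23334 genes with a symbol did. Differences are log2((floxed + 1)/(wild type + 1)), a scale that understates the change of low genes, and folds are ratios of FPKM given only where both groups reached 1 FPKM. A gene was called when its q in the authors' deposited table was under 0.05. The labels do not say how that q was computed, and no SD, n or replicate check can be given for the levels. The 2 genotypes are separate lines, and libraries from untreated cells were not analysed here, so a difference present before 4OHT and one caused by deletion cannot be told apart. In bulk RNA, fewer cells of a type and less RNA per cell cannot be told apart either.

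Cdc73, also called parafibromin, is a subunit of the PAF1 complex, which rides on RNA polymerase II through the body of a gene. The complex helps the polymerase to elongate, brings in the enzymes that ubiquitinate histone H2B, and so permits methylation of histone H3 by SET1/MLL and DOT1L. In leukaemia with an MLL fusion the complex also binds the fusion protein and is known to be needed at its targets, among them the Hoxa cluster and Meis1.

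At this early time the genotypes differed at many genes, mostly by little. Of the 10767 genes, 2945 were called (27.4%), with 1400 higher (13.0%) and 1545 lower (14.3%) in floxed cells. Among the called genes 1836 (62.3%) differed by less than 1.5-fold on the log2(FPKM + 1) scale, and 347 by at least 2-fold, 178 higher and 169 lower. The median difference over all genes tested was -0.02, and among called genes it was 0.52 for those higher and -0.50 for those lower. A further 145 genes differed by at least 2-fold without a call, of which 98 had microRNA or small nucleolar RNA symbols and 105 shared a locus entry with another gene. Reads of genes in a shared entry may have been split between them, so each such gene named below is marked as uncertain. Markers of the labelled cell were present in both groups: Mpo, Elane, Prtn3, Ctsg, Kit, Cebpa, Hoxa9, Hoxa10, Meis1, Csf2rb, Ptprc and Spi1 (listed as Sfpi1) all exceeded 5 FPKM, while the progenitor marker Cd34 stood at 0.620 in wild type cells against 0.315 in floxed.

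**Figure D1:**
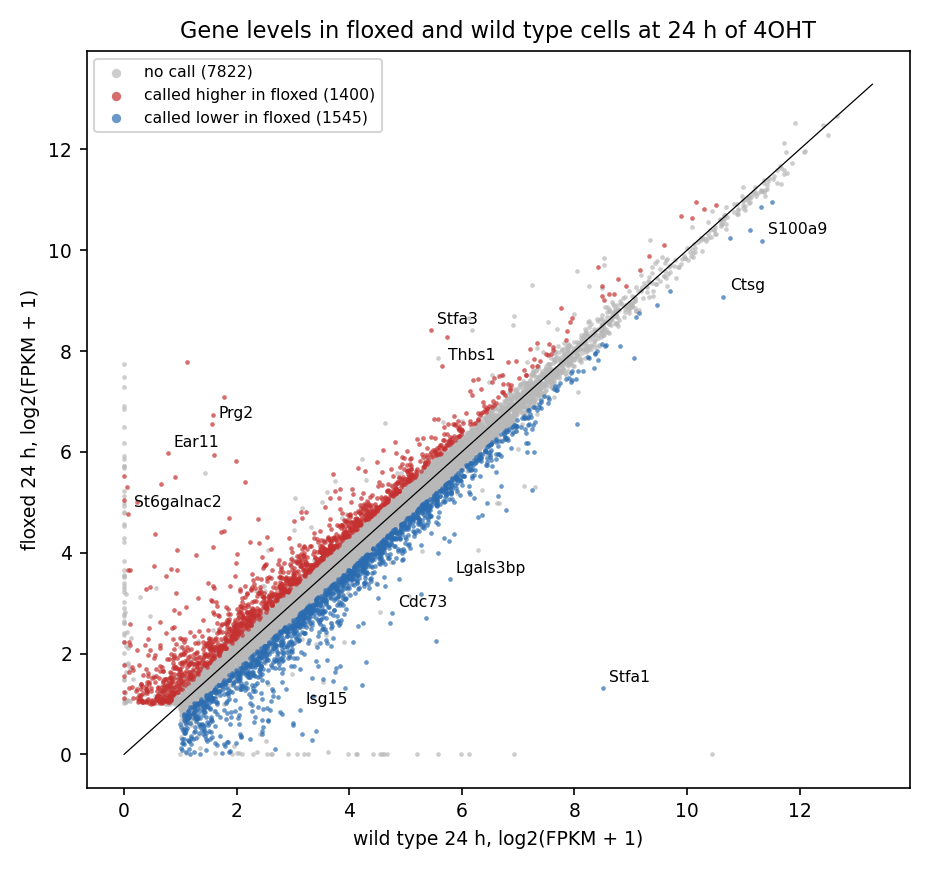
Level of each of the 10767 genes in wild type cells (horizontal axis) and floxed cells (vertical axis) at 24 h, both as log2(FPKM + 1), with 1 point per gene coloured by its call. Most of the 1400 genes called higher and the 1545 called lower lie close to the line of equal levels, and Stfa1 and Prg2 lie among the farthest from it.

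Cdc73 stood at 26.2 FPKM in wild type cells against 5.96 in floxed at 24 h (26.9 and 5.45 at 48 h). This was 4.40-fold lower, with q = 0.000449 in the authors' deposited table, the smallest q found among the genes tested and held by 1218 of them. Another gene shares the Cdc73 locus entry, and the value covers the whole gene, so the remaining level does not count unrecombined cells. Of the other 5 subunits, 2 were called higher and 3 had no call. Paf1, the scaffold subunit that names the complex, was 1.49-fold higher at 33.3 and 49.7 FPKM, and Leo1 1.33-fold higher at 19.2 and 25.5.

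Enzymes that act with the complex on chromatin changed in small numbers. Of 11 genes for H2B ubiquitination and H3K79 methylation, 2 were higher and 1 lower (27.3%, near the share over all genes), with a median of 0.10. The 2 higher genes were Rnf20 (18.2 and 30.3 FPKM, wild type first) and Rnf40 (20.3 and 27.0), which form the ligase for histone H2B. The lower one was Usp44, a protease that removes that ubiquitin, at 1.48 and 0.717. Dot1l, the H3K79 methyltransferase, had no call at 14.4 and 13.0, a value chosen after it was seen.

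Among 15 genes of P-TEFb, its 7SK brake and the super elongation complex, 2 were higher and 3 lower (33.3%, near the share over all genes), with a median of 0.15. Hexim1, which holds the P-TEFb kinase inactive within the 7SK particle, stood at 27.0 FPKM in wild type cells against 72.2 in floxed at 24 h, and at 26.9 and 147 at 48 h. Its wild type level was thus nearly the same at both times, and the gap between genotypes was wider at 48 h. Its relative Hexim2 went the other way, at 2.89 and 1.71. Ccnt2, one of the cyclins of P-TEFb, was 1.77-fold higher, and Mllt3, the normal copy of the AF9 partner gene, was 1.63-fold lower at 1.90 and 1.17. Of 12 genes of the DSIF, NELF, FACT and TFIIS factors, 2 were called (16.7%), both higher. They were Supt5 at 51.2 and 66.6 and Supt16 (shared entry) at 55.2 and 72.3.

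Interferon-stimulated genes were the list with the most calls in 1 direction. Interferons signal through JAK kinases to STAT factors and IRF9, which bind the interferon-stimulated response element (ISRE) and switch on antiviral genes. Of 64 listed genes 52 were tested, with a median of -0.80. Of these 38 were called lower and 0 higher in floxed cells, and 14 had no call. The share called was 73.1%, against 27.4% of all genes. Of the 52, 17 reached 1 FPKM in wild type cells alone and could only be lower, so the count is a description of the list and not support for its direction. Ifi27l2a, a strongly interferon-induced gene, stood at 40.0 FPKM in wild type cells against 5.49 in floxed, 7.28-fold lower. Lgals3bp, a secreted glycoprotein, stood at 54.1 and 10.1, 5.33-fold lower. Isg15, a ubiquitin-like modifier, stood at 7.67 and 0.831, and Usp18, the protease that removes it, at 2.95 and 0.173. Oasl2, of the oligoadenylate synthetase family, stood at 2.68 and 0.0456, and Slfn5 (shared entry) at 5.97 and 0.752. The most abundant members differed little and had no call: Ifitm1, a membrane protein that blocks virus entry, was at 514 and 498, Ifitm2 at 372 and 469, and Ifitm3 at 198 and 166.

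The promoters of 4 called members are shown because they carry the ISRE core. They are the 3 with the largest difference and the 1 with the highest level among called members that hold a match and share no locus entry, a choice made after the values were seen. Sequences are the 250 bases before the start from RefSeq promoters on GRCm38.p6, in the direction of transcription, all from the minus strand. They are Isg15 (chr4:156200819-156201068), Oas3 (chr5:120777660-120777909), Ifi203 (chr1:173942493-173942742) and Bst2 (chr8:71537473-71537722). Capitals mark the core, read as GAAA, any 2 bases and GAAA again.
Isg15: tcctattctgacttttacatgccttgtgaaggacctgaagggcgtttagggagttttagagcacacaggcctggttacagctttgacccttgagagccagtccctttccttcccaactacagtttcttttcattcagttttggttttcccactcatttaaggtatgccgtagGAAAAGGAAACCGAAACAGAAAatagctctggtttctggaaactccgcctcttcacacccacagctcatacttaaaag
Oas3: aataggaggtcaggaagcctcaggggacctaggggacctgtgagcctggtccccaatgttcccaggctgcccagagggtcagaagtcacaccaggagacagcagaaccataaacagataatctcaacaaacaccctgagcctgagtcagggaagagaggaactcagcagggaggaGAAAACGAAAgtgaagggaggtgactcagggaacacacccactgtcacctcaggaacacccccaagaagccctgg
Ifi203: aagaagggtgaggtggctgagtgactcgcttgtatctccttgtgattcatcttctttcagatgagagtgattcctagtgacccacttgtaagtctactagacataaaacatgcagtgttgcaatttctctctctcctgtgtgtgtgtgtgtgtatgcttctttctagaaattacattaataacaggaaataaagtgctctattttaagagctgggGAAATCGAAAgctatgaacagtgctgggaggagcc
Bst2: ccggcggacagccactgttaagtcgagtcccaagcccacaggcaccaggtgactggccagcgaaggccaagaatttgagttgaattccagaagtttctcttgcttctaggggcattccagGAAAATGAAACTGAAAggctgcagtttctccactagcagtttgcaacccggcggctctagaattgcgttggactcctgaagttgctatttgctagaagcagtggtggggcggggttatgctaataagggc

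Isg15 holds 3 overlapping matches, of which the nearest begins 66 bases before the start, and Bst2 holds 2 overlapping matches, the nearest at 124 bases. In Oas3 the match begins 75 bases before the start, and in Ifi203 35 bases, in 1 of its 2 promoter windows. Oas3 stood at 2.56 FPKM in wild type cells against 0.186 in floxed, Ifi203 at 5.20 and 1.44, and Bst2, which tethers budding virus, at 79.5 and 45.2. Searched on both strands of the 300-base windows (250 bases before to 50 after the start), the core was in 21 of the 40 tested list members that have a promoter (52.5%). It was in 3.44% of all 32851 promoter sequences and in 3.77% of tested genes with a promoter. By call it was in 5.69% of genes called lower, in 3.07% of genes called higher and in 3.51% of genes without a call. Within the list it was in 16 of 27 called members and in 5 of 13 without a call, so it was not limited to those that differed. A match describes letters and does not show binding.

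Other letters searched gave smaller shares. TTCNNNGAA, the core bound by STAT dimers, was in 6 of 20 interferon receptor and signalling genes, all 6 without a call. Over all tested genes with a promoter it was in 8.28%. TGACGTCA, bound by CREB and ATF proteins, and the CArG box, bound by SRF, were each in 2 of 22 immediate early genes. Over all tested genes with a promoter they were in 3.80% and 1.49%. CACGTG, the E-box bound by Myc and Max, was in 15 of 40 Myc target genes, against 12.5% of tested genes with a promoter. In the 150 bases before the start alone, TTCNNNGAA was in 1 of the 20 genes, against 4.27% of tested genes, so the 2 shares were near each other. In the same shorter window TGACGTCA was in 1 and the CArG box in 2 of the 22, against 2.91% and 0.799% of tested genes. CACGTG was there in 9 of the 40, against 7.77% of tested genes.

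Receptors and transducers of interferon did not follow their targets as a group. Of 22 genes 3 were lower and 3 higher (27.3%, near the share over all genes), with a median of -0.23. The 3 lower were Irf7, the factor that amplifies type I interferon, at 7.0 and 0.543 FPKM, wild type first, Irf9 at 10.5 and 4.62, and Usp18, which also binds the receptor and damps it. The 3 higher were Socs1, a brake on JAK kinases, at 3.67 and 5.92, Irf5 at 9.72 and 13.1, and Jak1 (shared entry) at 35.2 and 47.1. Among 14 sensors of viral nucleic acid and their adaptors 3 were lower and 1 higher (28.6%, near the share over all genes), with a median of -0.10. The 3 lower were the RIG-I-like sensors Ddx58, which is RIG-I itself, at 3.91 and 1.39, Dhx58 at 5.78 and 2.30, and Ifih1 at 6.10 and 2.85. The higher one was Ikbke, a kinase of the same pathway, at 8.54 and 12.6.

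Antigen presentation on MHC class I was split. Of 22 genes tested, 9 were lower and 5 higher (63.6% called, against 27.4% of all genes), with a median of -0.21. Of the 22, 2 reached 1 FPKM in floxed cells alone and could only be higher, H2-Q4 among them. The 1 that reached it in wild type cells alone, H2-M3, could only be lower. The lower side held the peptide transporter Tap1, at 12.0 FPKM in wild type cells against 4.88 in floxed, the immunoproteasome subunit Psmb9 at 32.5 and 17.0 (outside the naming rule and chosen after its values were seen), and the non-classical H2-M3 at 3.82 and 0.980. H2-T23 (shared entry) was 11.2-fold lower at 17.8 and 1.59. Classical chains and a relative were higher instead: H2-K1, also chosen after its values were seen, stood at 137 and 197, H2-D1 (shared entry) at 217 and 459, and H2-Q4 at 0.921 and 11.7. These genes are near-identical copies of each other, so reads may have been split among them. B2m (shared entry), the common light chain, had no call at 499.96 and 448.

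Immediate early genes and the AP-1 family were mostly called higher. These genes respond within minutes to growth factor and stress signals, and Fos and Jun proteins pair to form AP-1. Of 28 tested, 17 were higher, 1 was lower and 10 had no call, with a median of 0.50. The share called was 64.3%, against 27.4% of all genes. Of the 28, 3 reached 1 FPKM in floxed cells alone and 1 in wild type alone. Fos stood at 1.82 FPKM in wild type cells against 9.51 in floxed (1.41 and 15.1 at 48 h), 5.22-fold higher at 24 h. Ier5 stood at 5.14 and 15.8, and Junb at 21.6 and 54.8. Egr1 stood at 0.172 and 3.19, and the nuclear receptor Nr4a2 at 0.892 and 3.55. Klf4, a factor of monocyte differentiation, was 2.63-fold higher at 4.56 and 12.0. The exception was Atf3, a stress-induced repressor, called lower at 1.77 and 1.19 and called higher at 48 h (0.708 and 8.70), outside the naming rule and chosen after its values were seen. The most abundant member, Myc, had no call at 120 and 150.

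Feedback genes of the pathways that switch on immediate early genes were also called higher more often than lower. Of 12 ERK feedback genes 6 were higher and 2 lower (66.7%), with a median of 0.24, which was 0.08 without a minimum level and 0.07 with a minimum of 5 FPKM. Phlda1 stood at 1.03 FPKM in wild type cells against 3.38 in floxed, Dusp1 at 0.833 and 2.71, and Dusp2 at 3.54 and 8.06. The phosphatases Dusp1 and Dusp2 remove phosphate from MAP kinases. Spred1, an inhibitor upstream of ERK, was lower at 14.1 and 10.3. Of 16 NF-kappaB targets 5 were higher and 0 lower, with a median of 0.13. The 31.2% called were all higher, against 13.0% higher and 14.3% lower over all genes tested. Tnf stood at 2.98 and 12.8, 4.30-fold higher, and the chemokines Ccl4 and Ccl3 at 2.67 and 5.92 and at 25.8 and 49.4.

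Targets of p53 were called higher more often than lower. Of 35 tested, 12 were higher and 1 lower (37.1% called, against 27.4% of all genes), with a median of 0.22. Cdkn1a, the inhibitor that halts the cycle at G1, stood at 44.2 FPKM in wild type cells against 99.9 in floxed (36.5 and 238 at 48 h). Gadd45a (shared entry) stood at 18.5 and 48.3, Phlda3 at 3.44 and 6.77, and Btg2, which is also an immediate early gene, at 4.85 and 9.83. The 1 lower member was Tap1, counted above with antigen presentation. Bax, which opens the mitochondrial membrane, had no call at 145 and 158, and Trp53 itself none at 109 and 90.0. Of 15 BCL2 family genes 3 were higher and 4 lower (46.7% called), with Pmaip1 at 18.7 and 28.3 and Bcl2 at 1.16 and 0.635. Of the 15, 3 reached 1 FPKM in wild type cells alone and could only be lower, Bcl2 among them.

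**Figure D2:**
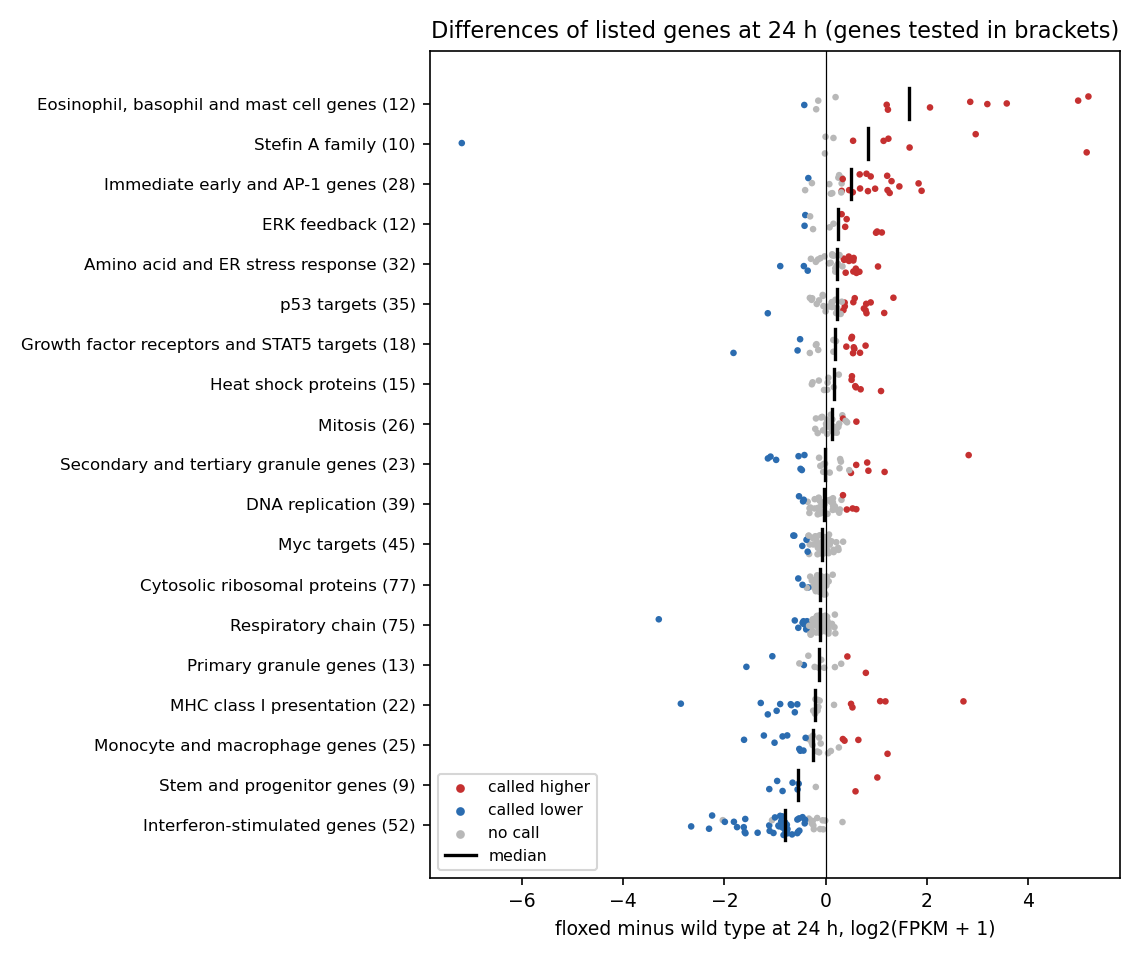
Difference between floxed and wild type cells at 24 h on the log2(FPKM + 1) scale (horizontal axis) for the tested members of 19 gene lists (vertical axis), with 1 point per gene coloured by call and a bar at each list's median. Medians run from -0.80 for interferon-stimulated genes to 1.65 for eosinophil, basophil and mast cell genes, and members of 1 list lie on both sides of 0 in most lists.

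Growth machinery was little changed at 24 h. Of 77 cytosolic ribosomal protein genes 3 were lower and 0 higher (median -0.12), of 75 respiratory chain genes 9 lower and 0 higher (median -0.12), and of 45 Myc targets 5 lower and 0 higher (median -0.08). The share called was thus 3.90%, 12.0% and 11.1% in these lists, against 27.4% of all genes. Of 39 DNA replication genes 4 were higher and 3 lower (17.9% called), and of 26 mitosis genes 2 were higher and 0 lower (7.69%). Pcna, the replication clamp, stood at 358 FPKM in wild type cells against 545 in floxed, and the mitotic marker Mki67 at 31.5 and 48.5, both higher. The 3 lower replication genes were Pold1, Mcm6 and Rfc2, with log2 differences of -0.53, -0.45 and -0.43.

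Regulators of G1 moved more. Of 26 tested 7 were higher and 4 lower (42.3% called, against 27.4% of all genes). Cdkn1c, an inhibitor of the same family as Cdkn1a, stood at 1.14 FPKM in wild type cells against 6.60 in floxed (1.09 and 30.0 at 48 h), 5.81-fold higher. Ccnd2 (shared entry) was 4.90-fold lower at 9.12 and 1.86, while Ccnd3 (shared entry) was 1.80-fold higher at 99.7 and 180. E2f2 and Ccne1, which promote entry into S phase, were higher at 8.11 and 16.2 and at 23.1 and 39.7.

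Stress response lists had more calls higher than lower at 24 h. Of 32 genes of the amino acid and ER stress response 13 were higher and 3 lower, with a median of 0.23. Over all genes tested 13.0% were higher and 14.3% lower at 24 h. At 48 h the same list had a median of -0.32 with 9 higher and 14 lower (over all genes tested 24.2% were higher and 31.7% lower). Hspa5, the main ER chaperone, stood at 640 FPKM in wild type cells against 941 in floxed at 24 h, and at 761 and 704 without a call at 48 h. Asns, asparagine synthetase, stood at 105 and 161 at 24 h and at 106 and 115 without a call at 48 h. Nupr1 was 2.13-fold higher at 13.3 and 28.3, and the cystine transporter Slc7a11 was 2.20-fold lower at 5.69 and 2.59. Of 15 heat shock genes 6 were higher and 0 lower at 24 h (40.0% called, against 27.4% of all genes). Among the higher was Hsph1 at 40.6 and 66.3, which was called lower at 48 h at 58.5 and 45.4.

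Of 34 lipid genes 4 were higher and 5 lower (26.5%, near the share over all genes), with a median of 0.02. Scd1, the desaturase that makes oleate, stood at 12.8 FPKM in wild type cells against 5.72 in floxed (21.1 and 1.12 at 48 h). Idi1, an enzyme of isoprenoid synthesis, was 1.87-fold higher at 93.5 and 175.

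Genes tied to MLL fusions and to stem cells did not move as 1 group. Of 26 genes of the Hoxa cluster and other MLL fusion targets 6 were higher and 4 lower (38.5% called, against 27.4% of all genes). Their median was 0.03, and -0.03 without genes that share a locus entry. Meis1, the partner of Hoxa9, stood at 13.0 FPKM in wild type cells against 7.88 in floxed, 1.65-fold lower. Hoxa10 was 1.75-fold higher at 52.7 and 92.5, and Hoxa5 (shared entry) 1.71-fold higher at 7.59 and 13.0. Hoxa9, outside the naming rule and chosen after its values were seen, was also called higher, at 34.8 and 44.3. Myb, another target, had no call at 116 and 96.8. Of 9 stem and progenitor genes that passed the minimum, out of 20 listed, 6 were lower and 2 higher, with a median of -0.56. The share called was 88.9% of the 9. Over all 20 listed genes, with no minimum level, the median was -0.12. Kit, the stem cell factor receptor, stood at 17.9 and 11.8, and Cd48 at 21.6 and 9.42. Lmo2 stood at 149 and 103, and Erg, which was higher, at 0.556 and 2.16.

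Factors of the myeloid lineage changed in both directions, 8 of 19 higher and 3 lower, with a median of 0.03. The share called was 57.9%, against 27.4% of all genes. Cebpa, which drives the step to the granulocyte-monocyte progenitor, was 1.93-fold lower, with 68.8 FPKM in wild type cells against 35.7 in floxed. Cebpe, which acts later in granulocytes, was 2.13-fold higher at 69.4 and 148 (70.3 and 313 at 48 h). Spi1 had no call at 215 in both groups. The inhibitors Id1 and Id2 were 1.82-fold and 2.1-fold higher, at 91.5 and 166 and at 6.17 and 13.0. Of 18 growth factor receptor and STAT5 target genes 8 were higher and 3 lower (61.1% called). The higher ones included the STAT5 targets Cish, at 30.5 and 49.4, and Pim2, at 4.30 and 8.15. The largest difference in the list was -1.82, in the lower Ccnd2 (shared entry).

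Granule genes were split at 24 h. Of 13 primary granule genes 2 were higher and 3 lower (38.5% called, against 27.4% of all genes), with a median of -0.14. Ctsg, cathepsin G, stood at 1602 FPKM in wild type cells against 540.2 in floxed, 2.97-fold lower, and Mpo, myeloperoxidase, at 1145 and 1986, 1.73-fold higher. Of 23 secondary and tertiary granule genes 6 were higher and 7 lower (56.5% called), with a median of -0.01. At 48 h 22 of the same 23 were called higher, against 24.2% of all genes. S100a9, a calcium-binding protein of neutrophils, stood at 2574 and 1166 at 24 h and at 1993 and 6618 at 48 h. Mmp9, a gelatinase, stood at 9.90 and 4.12 at 24 h and at 7.01 and 46.7 at 48 h. Both genes were thus called lower at 24 h and higher at 48 h. Chi3l1, a chitinase-like protein, was higher at both times, at 2.63 and 24.7 and at 2.69 and 127. S100a8, the partner of S100a9, had no call at 24 h at 5445 and 5757.

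Monocyte and macrophage genes leaned lower, with 9 of 25 lower and 4 higher and a median of -0.26. The share called was 52.0%, against 27.4% of all genes. At 48 h 21 of the 25 were called higher, against 24.2% of all genes. Ccr2, the receptor that guides monocytes out of marrow, stood at 81.2 FPKM in wild type cells against 25.9 in floxed, 3.14-fold lower. F13a1 stood at 144 and 70.9, and Siglec1, which is also induced by interferon, at 3.70 and 1.02. Of the 4 higher members Klf4, given above with the immediate early genes, differed most, with a log2 difference of 1.22. The part of monocytic cells in the lower interferon genes was not tested. The abundant Ly6c2 and Lyz2 had no call, at 2011 and 2160 and at 1003 and 916.

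Most tested eosinophil, basophil and mast cell genes were higher in floxed cells. Of 29 genes found, 12 were tested and 17 stayed under the minimum in both groups. Of the 12, 8 were higher and 1 lower (75.0% called, against 27.4% of all genes), and the median was 1.65. In 6 of the 12 the minimum was reached in floxed cells alone, so those had to be higher. The median depended on the minimum level: it was 0.01 with none and 0.02 for the genes of 1 FPKM or more in both groups, where 2 were called higher. Prg2, which encodes major basic protein, a toxin of eosinophil granules (chromosome 2, 84980461 to 84983632, plus strand), stood at 1.94 FPKM in wild type cells against 92.6 in floxed at 24 h, and at 1.31 and 66.6 at 48 h. Epx, eosinophil peroxidase, stood at 0.0526 and 11.6, and Ear11, an eosinophil-associated ribonuclease, at 0.711 and 61.7. Ear1 stood at 0.447 and 12.3 and Prg3 at 0.363 and 4.69. The basophil protease Mcpt8 stood at 3.16 and 8.77. Hdc, which makes histamine, was the 1 lower member at 36.1 and 26.7. Summed over the listed genes, the level was 77.5 in wild type cells against 268 in floxed. Of the 29 genes 9 were listed at 0 in both groups. Wild type levels of the 8 higher genes were at most 3.52 FPKM at either time. Whether the floxed line expressed them before 4OHT was not tested.

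The stefin A cluster on chromosome 16, which encodes inhibitors of cysteine proteases, held changes in opposite directions. The list of 10 genes includes the relatives Cst3 and Cstb from outside the cluster. Of the 10, 6 were higher, 1 was lower and 3 had no call (70.0% called), with a median of 0.84. Stfa1 stood at 361 FPKM in wild type cells against 1.48 in floxed (341 and 2.36 at 48 h), 245-fold lower. BC117090 stood at 1.99 and 106, 53.2-fold higher, and Stfa3 at 42.7 and 340. Stfa2 had no call at 292 and 325, and neither did Cst3 at 705 and 698 and Cstb at 179 and 179. Cluster members are close copies of each other, so reads may have been shared among them and the single values are uncertain.

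Genes outside the lists stood among the most changed. Of abundant genes (mean of 100 FPKM or more), Csn2, a milk casein and STAT5 target of the mammary gland, stood at 52.0 FPKM in wild type cells against 307 in floxed, 5.91-fold higher. Thbs1, thrombospondin, stood at 49.3 and 207, and Mknk2, a kinase of the translation factor eIF4E, at 72.2 and 171. On the lower side Spp1, osteopontin, stood at 264 and 92.8 at 24 h, and was called higher at 48 h at 132 and 255. Clec11a, a secreted factor that promotes growth of progenitors, was 7.26-fold lower at 18.7 and 2.57, and Casp4, the inflammatory caspase that senses lipopolysaccharide, 6.95-fold lower at 12.1 and 1.74. Car4, carbonic anhydrase 4, was 29.8-fold higher at 2.02 and 60.1. Among nuclear RNAs, Neat1, the scaffold of paraspeckles, stood at 4.66 and 12.6, and Malat1 at 3.22 and 6.73. Among the 15 most increased genes, Mir1945 and Mir3074-1 (shared entry) are listed at 0 in wild type, and poly(A) libraries measure such small RNAs poorly.

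A run of neighbouring genes on chromosome 11 was higher in floxed cells, a region chosen after the values were seen because St6galnac2 and BC018473 were both among the 15 most increased genes. Within 300 kb on either side of the St6galnac2 locus, 15 of 20 genes were tested, 10 were higher and 1 lower. Of the 15, 5 reached 1 FPKM in floxed cells alone and could only be higher, 4 of them called, and these include the 2 genes that chose the region. Of the other 10 genes 6 were higher and 1 lower, against 13.0% and 14.3% of all genes, in a region picked for its values. Of these 6, Gm7367 is uncertain at 57.0 and 79.1 FPKM, wild type first. It shares its locus entry with Ubald2, which had no call at 11.0 and 4.19. St6galnac2, a sialyltransferase (positions 116675303 to 116694868, minus strand), stood at 0.0497 FPKM in wild type cells against 26.4 in floxed, BC018473 at 0.0417 and 38.6, and Mxra7 at 0.0587 and 3.66. St6galnac1 stood at 0.0232 and 8.08 without a call (q = 0.246 in the authors' deposited table). Mettl23 was lower at 13.3 and 5.09, while Srsf2, at 420 and 413, and Mfsd11, at 12.2 and 11.9, had no call. At 48 h St6galnac2 stood at 0.0600 and 16.6 and BC018473 at 0.0473 and 27.5, so both genes were near 0 in wild type cells at each time.

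**Figure D3:**
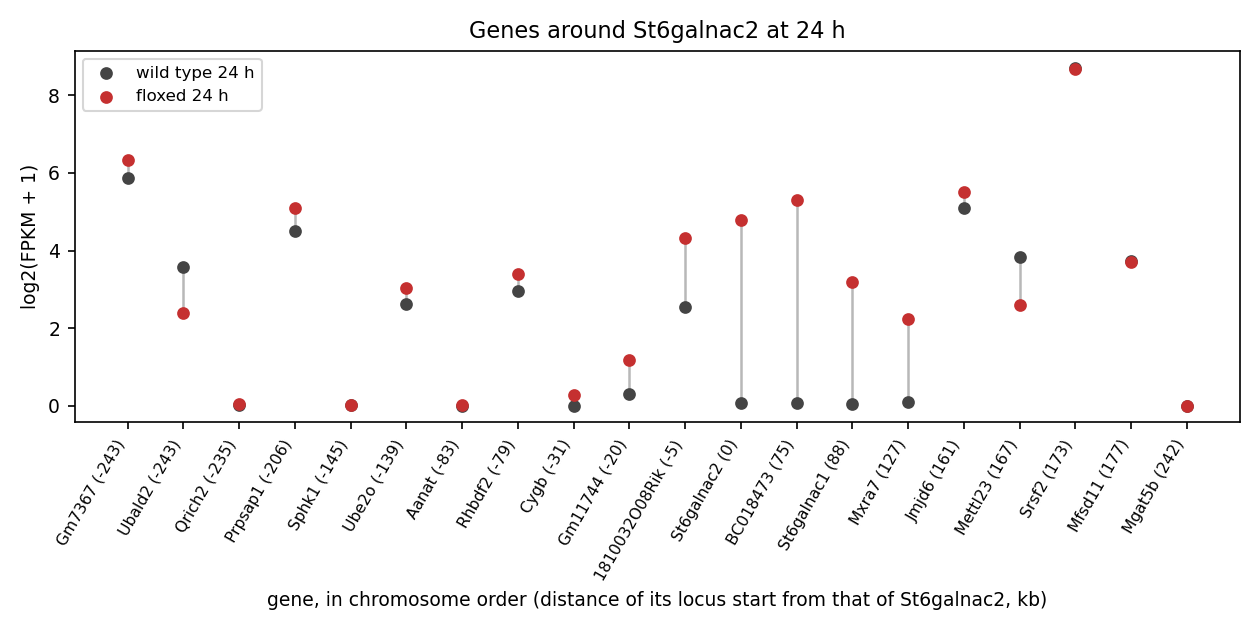
Levels of the 20 genes around St6galnac2 on chromosome 11 in both genotypes at 24 h, as log2(FPKM + 1) on the vertical axis, with genes in chromosome order and the distance from St6galnac2 in kb in brackets. St6galnac2, BC018473, St6galnac1 and Mxra7 lie near 0 in wild type cells and between 3.66 and 38.6 FPKM in floxed cells, while Srsf2 and Mfsd11 coincide.

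The share of genes called varied by a few percentage points with genomic span and with exon number. Of the tested genes 10111 (93.9%) matched the GENCODE M21 annotation, and over 5 bins of genomic span the share called ran from 25.0% to 28.9%, with bin medians from -0.03 to -0.00. In the bin of longest genes, 60.8 kb and over, 12.1% were higher and 16.2% lower. Over 5 bins of exon number in the same matched genes the share called ran from 25.6% to 29.4%. In protein-coding genes alone it ran from 24.3% to 29.2% over bins of span. Over 5 bins of exon number in protein-coding genes, the share called was 31.9% with 1 to 4 exons and 26.4% with 16 or more. The share lower was 17.3% and 11.9% in these bins, and the share higher 14.6% and 14.5%. Of 514 protein-coding genes with 1 exon, which fall in the first of these bins, 80 were higher and 77 lower.

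Most calls at 24 h had the same direction at 48 h, where 55.8% of these genes were called, 24.2% higher and 31.7% lower. Of the 1400 genes higher at 24 h, 1051 (75.1%) were higher at 48 h and 18 (1.29%) lower. Of the 1545 lower at 24 h, 1216 (78.7%) were lower at 48 h and 110 (7.12%) higher. Read from the later time, 40.4% of the genes higher at 48 h and 35.7% of those lower had been called so at 24 h. The libraries differ between the times but the lines do not, so agreement includes any difference the lines had before treatment. The change of a difference between the times was not tested, since each group has 1 value.

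Interferon-stimulated genes made up 14 of the 110 genes that were lower at 24 h and higher at 48 h. Isg15 stood at 7.67 FPKM in wild type cells against 0.831 in floxed at 24 h, and at 2.02 and 5.86 at 48 h. Usp18 stood at 2.95 and 0.173 at 24 h and at 0.433 and 0.932 at 48 h. Both wild type and floxed levels therefore differed between the times, in opposite directions. Over the 52 tested members 51 were at a lower level in wild type cells at 48 h than at 24 h (median -0.55), and 40 at a higher level in floxed cells (median 0.43). Over all genes tested these medians were -0.01 and -0.10. The median genotype difference of the list at 48 h was 0.14, with 21 members higher and 12 lower. Ifi27l2a had no call at 48 h, at 10.9 and 13, and Lgals3bp was lower at 23 and 13. The sources used here do not say whether both times were scaled together.

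All 17 immediate early genes that were higher at 24 h were also called higher at 48 h, Atf3 went from lower to higher, and the list's median went from 0.50 to 1.43. In floxed cells 20 of the 28 members stood higher at 48 h than at 24 h (median 0.73), and in wild type cells 21 stood lower (median -0.11). Ier5 stood at 4.92 FPKM in wild type cells against 65.3 in floxed at 48 h, and Junb at 20.7 and 104. The eosinophil list changed little between the times, with a median genotype difference of 1.65 at 24 h and 1.70 at 48 h.

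**Figure D4:**
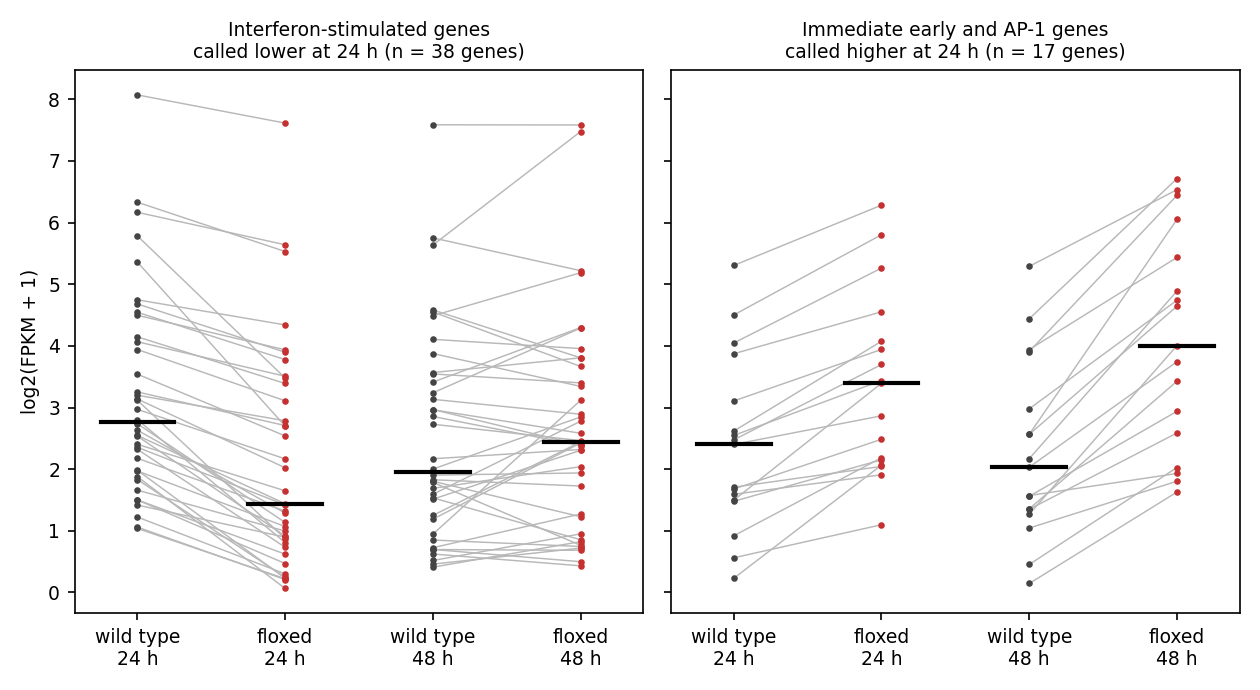
Levels, as log2(FPKM + 1) on the vertical axis, of the 38 interferon-stimulated genes called lower at 24 h (left) and the 17 immediate early and AP-1 genes called higher at 24 h (right) in the 4 groups, with lines joining the genotypes within a time and bars at the medians. Members were picked by their 24 h call, so their 24 h direction is fixed by that choice; at 48 h the interferon medians lie closer together and the immediate early medians farther apart.

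**Figure D5:**
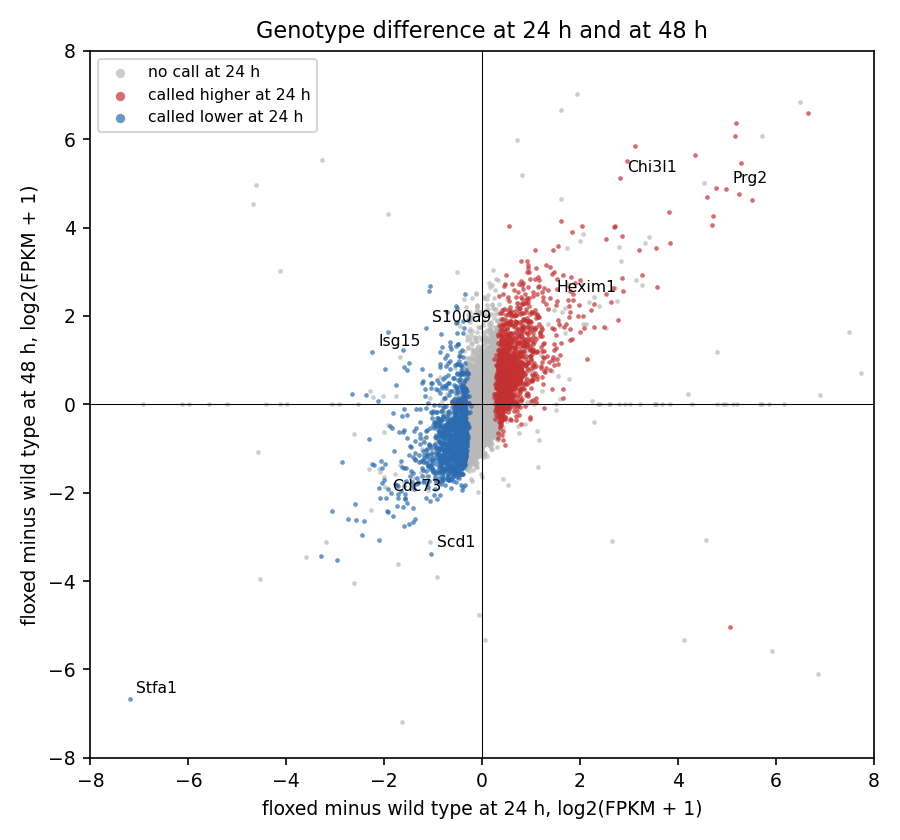
Genotype difference of each tested gene at 24 h (horizontal axis) and at 48 h (vertical axis), both on the log2(FPKM + 1) scale, coloured by the 24 h call; 6 genes lie outside the axes. Of the genes called at 24 h, 1051 higher and 1216 lower ones were called the same way at 48 h, and S100a9 and Isg15 lie below 0 at 24 h and above 0 at 48 h.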

How the data were processed

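Poly(A) RNA libraries from 4 groups of 2 were used, 4 of them from 24 h. The submitters' processing notes name Bowtie2, Cuffdiff, Cufflinks 2.1 and mm10 without their roles; strand, trimming and annotation are not stated in the sources used here. The authors deposited 1 FPKM value per gene and group with the duplicates combined, the authors' q-value for the genotypes at each time, and the authors' fold ratio, which was not printed. FPKM is relative to all other RNA, so it does not show changes of total RNA. Total reads are not given; under 0.05 FPKM the most common ratio of floxed to wild type values was 0.834 (68 of 1272 genes within 0.002), which would be the relative worth of 1 fragment if those genes had 1 each, and no interval was computed. The sums of FPKM were 665619 in wild type cells against 656874 in floxed.

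Left out were 27 genes whose symbols had become date numbers, 18 of them at the minimum of 1 FPKM. Differences used a pseudocount of 1 FPKM, with pandas 2.3.3 and numpy 2.4.6 in Python 3.11.15. The planned limma fit over libraries needs values per library, which the table does not hold, so calls are the authors' q under 0.05. In all, 2140 tested genes (19.9%) share a locus entry. Coordinates of genes are from GENCODE M21, on the same assembly as mm10, and promoters from RefSeq, which matched 8010 tested genes (74.4%) by symbol. Named genes are Cdc73, the 15 called genes of largest difference in each direction, the 10 in each direction with a mean of 100 FPKM or more, and in each list up to 6 called members and the 3 uncalled of highest wild type level. The members and the 39 gene lists were chosen with earlier results of these data known, so no list gets a test of its own. The calling step was run on simulated data with preset q-values, which checks the code only and not the authors' q. A few genes that the rule names are not reported here. Alternatives were other pseudocounts, filters, scalings and q limits.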

Additional observations from a re-analysis of the deposited data

How the results depend on the processing

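No paired analysis was possible because the deposited table holds 1 value per group, and for the same reason no library could be left out in turn. The count of called genes of at least 2-fold was 347; it was 605 with a pseudocount of 0.1 FPKM, 119 with a pseudocount of 5, 223 for genes of 5 FPKM or more in either 24 h group, and 207 for genes of 1 FPKM or more in both groups, the last filter chosen after seeing the data. At q under 0.01 the genes called lower numbered 1012. Interferon-stimulated genes called lower numbered 21 at 5 FPKM and 24 with 1 FPKM in both groups, immediate early genes called higher 10 at 5 FPKM, and eosinophil, basophil and mast cell genes called higher 2 with 1 FPKM in both groups, since these filters test fewer genes. No named called gene changed direction, which only the rescalings could have altered. The medians of 7 of the 39 lists changed sign under at least 1 alternative: BCL2 family (-0.08, up to 0.12), Hoxa cluster and MLL targets (0.03, down to -0.03), histone genes (0.02, down to -0.12), erythroid genes (0.27, down to -0.12), stromal genes (-0.68, up to 0.00), G1 genes (-0.07, up to 0.00) and secondary granule genes (-0.01, up to 0.01). Calls rest on the authors' q and on which group has the higher FPKM, so other pseudocounts and filters could not change them. Both rescalings could change only a direction, and all 205 named called genes kept theirs. At q under 0.01, 34 of the 205 lost the call. With 5 FPKM in either group 176 could be tested, without shared locus entries 172 and with 1 FPKM in both groups 165. Their calls were the same by construction. List medians ranged from -0.96 to -0.41 for interferon-stimulated genes, 0.30 to 0.63 for immediate early genes and 0.01 to 2.86 for the eosinophil list.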

Other observations

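Polycomb and histone genes were not described above. Of 18 heterochromatin and Polycomb genes 4 were higher and 0 lower at 24 h, with a median of 0.09. The 22.2% called were all higher, against 13.0% higher and 14.3% lower over all genes tested. Dnmt3b, a DNA methyltransferase, stood at 3.53 FPKM in wild type cells against 6.10 in floxed. Of 18 histone genes 3 were higher and 4 lower (38.9% called). The replication-independent H3f3b was higher at 438 and 685, while Hist1h2bc was lower at 11.0 and 4.39. Of 20 glycolysis genes 0 were higher and 2 lower (10.0% called), Pfkfb3 at 26.7 and 18.7 and Eno1 (shared entry) at 532 and 231. Markers of lymphoid, erythroid and stromal cells were nearly all under the minimum: of 19 listed genes of T, B and NK cells 3 were tested, with Igll1 at 4.87 and 0.608 and Cd79b at 0.890 and 8.21, both called.

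In 3 locus entries 2 genes had opposite calls, and in 2 of these both differed by at least 2-fold. Ndufs5 stood at 45.7 FPKM in wild type cells against 3.75 in floxed and BC002163 at 0.577 and 40.3, and their sums were 46.3 and 44.0. Eno1 stood at 532 and 231 and Gm5506 at 1.17 and 219, and their sums were 533 and 450.0.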
